A study of Homo sapiens with 12 samples.

Results

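MDA-MB-231 is a human triple-negative breast cancer line, mesenchymal in character, that lacks the oestrogen and progesterone receptors and carries no amplified HER2. Its 6 RNA-seq libraries, of 12 in the series, are described here as 2 sets of 3, taken by the number at the end of each deposited name across both treatments. The low-numbered set held untreated libraries 1 and 2 and treated library 1. The high-numbered set held untreated library 4 and treated libraries 4 and 5. In the sample titles, untreated replicates 1, 2 and 3 are numbers 1, 2 and 4, and treated replicates 1, 2 and 3 are numbers 1, 4 and 5. The sets were recognised from the same counts described here: they were chosen by how far libraries of one treatment lay from each other over all genes, so every difference between them below is a description, with no test. Treated cells had received interferon-β, a type I interferon, at 400 IU/mL for 48 h, and all 6 libraries came from cells labelled wild type and grown in low-glucose DMEM with serum. The other 6 libraries came from HCC38, another triple-negative line, grown in RPMI-1640 and split in the same way into 3 untreated and 3 treated. The titles call the replicates biological without saying whether they were separate cultures, and nothing in the labels says when or how numbers 1 and 2 or 4 and 5 were grown, prepared or sequenced. A p-value then takes in only how these libraries vary, which may be technical.

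Dividing cells switch on genes in waves. Genes of the G1/S wave, such as those of the MCM helicase and nucleotide supply, are used for DNA replication, and genes of the G2/M wave build the spindle, the kinetochores and the machinery of cytokinesis. Other programmes known to vary between cultures of one line are those of inflammation, lipid supply and the secretory and amino acid stress responses. In bulk samples, a larger share of cells in a phase and more of a transcript per cell cannot be told apart.

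The line's labels were matched by its markers in every library. VIM, the mesenchymal intermediate filament, was at 2151 to 3199 CPM (counts relative to library size, scaled between libraries by the TMM method), and the epithelial cadherin CDH1 was at 0 to 0.673 CPM against 138 to 168 CPM in HCC38. ESR1, the oestrogen receptor, was at 0 to 0.0747 CPM and PGR, the progesterone receptor, at 0 in all 6. Total counts were 28757721, 34408108 and 34122062 in the low-numbered set and 43588773, 28865539 and 39137471 in the high-numbered set, so depth overlapped between the sets. Markers of other cell types were near the floor, with the T cell, B cell and natural killer genes CD3D, MS4A1 and NKG7 and the fibroblast gene THY1 at 0 in all 6 libraries. The leukocyte markers tested (4 of 13) summed to 1.46, 1.64 and 2.21 CPM in the low-numbered and to 0.679, 1.65 and 1.99 CPM in the high-numbered set. The fibroblast and endothelial markers tested (10 of 13), mostly COL1A1 and PDGFRB, summed to 16.5 to 38.0 CPM, and those of fat and muscle (2 of 9) to at most 1.31 CPM. All 3 sums were lower in the high-numbered set within each treatment, and their part in the results was not tested.

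Within a treatment, libraries of one set lay closer together than libraries of different sets. The sets were chosen by such distances, so this order follows from the choice and the values only give its size. In a principal component analysis of the 6 libraries the first component (45.8% of the variance) separated the treatments, from -39.5 to -22.4 untreated and from 13.1 to 45.2 treated. The second (26.8%) ordered the sets, from 9.64 to 44.3 in the low-numbered and from -45.8 to -3.89 in the high-numbered set. Over the 11010 genes at a mean of 5 CPM or more in the line, the median absolute log2 difference was 0.067 between untreated libraries 1 and 2 and 0.087 between treated libraries 4 and 5. It was 0.20 between untreated libraries of different sets, for both pairs, and 0.18 and 0.17 for the treated pairs. The 6 pairs of HCC38 replicates gave 0.069 to 0.15, below each of the 4 between-set pairs of MDA-MB-231. At least a 1.5-fold difference was seen for 0.291% and 0.236% of genes within the sets, and for 6.19% to 9.15% between them.

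**Figure D1:**
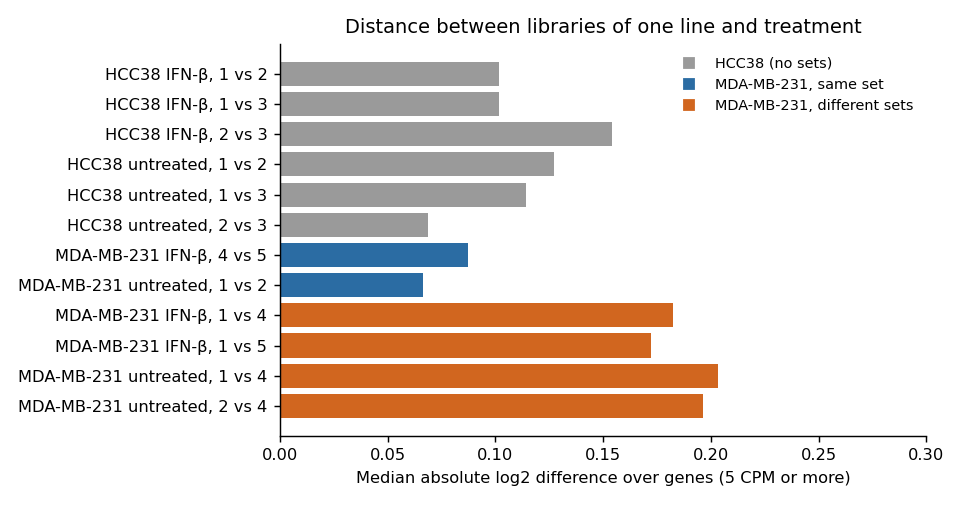
Median absolute log2 difference over genes between every pair of libraries of one line and treatment (numbers are those of the deposited names; genes at 5 CPM or more). The 4 pairs of MDA-MB-231 libraries from different sets, in orange, lie between 0.17 and 0.20, above the same-set pairs in blue (0.067 and 0.087) and the HCC38 pairs in grey (0.069 to 0.15). The sets were chosen by such distances.

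The fitted difference between the sets, high-numbered minus low-numbered with treatment as a term, was counted when it was at least 1.5-fold and the sets did not overlap among the untreated or among the treated libraries. By this size rule 1192 genes were higher in the high-numbered set (6.58% of 18121 tested) and 1138 were lower (6.28%). Most of these were weakly expressed: 323 genes on the higher and 411 on the lower side had a mean of 5 CPM or more, which was 2.93% and 3.73% of the 11010 such genes. At that level, another 5645 genes were ordered by set within both treatments with a difference under 1.5-fold. The differences were modest in size, at most 3.47-fold higher (IGFN1) and 4.38-fold lower (SNED1) among genes at 5 CPM or more. At the edge of the rule stood HAUS8, just inside at 0.59 (log2), and ARHGAP11A, just outside at 0.58, with PDIA6 at -0.59 and F13A1 at -0.58 on the lower side.

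The untreated and the treated libraries share no library, so the set difference can be read separately in each. Of 351 genes at least 1.5-fold higher in untreated library 4 than in the mean of libraries 1 and 2, 333 were also higher in treated libraries 4 and 5 than in treated library 1, 142 of them by 1.5-fold or more, and none was 1.5-fold lower. Those 142 were 40.5% of the untreated and 38.1% of the treated list. Of 567 genes at least 1.5-fold lower without treatment, 552 were lower with it, 231 of them by 1.5-fold or more, which was 40.7% of the untreated and 64.2% of the treated list. Across the 11010 genes, which are not independent replicates, the correlation of both differences was 0.70 (Pearson). In size, 736 genes at 5 CPM or more differed at least 1.5-fold between the sets and 617 between treated and untreated libraries, and 129 genes were in both counts.

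**Figure D2:**
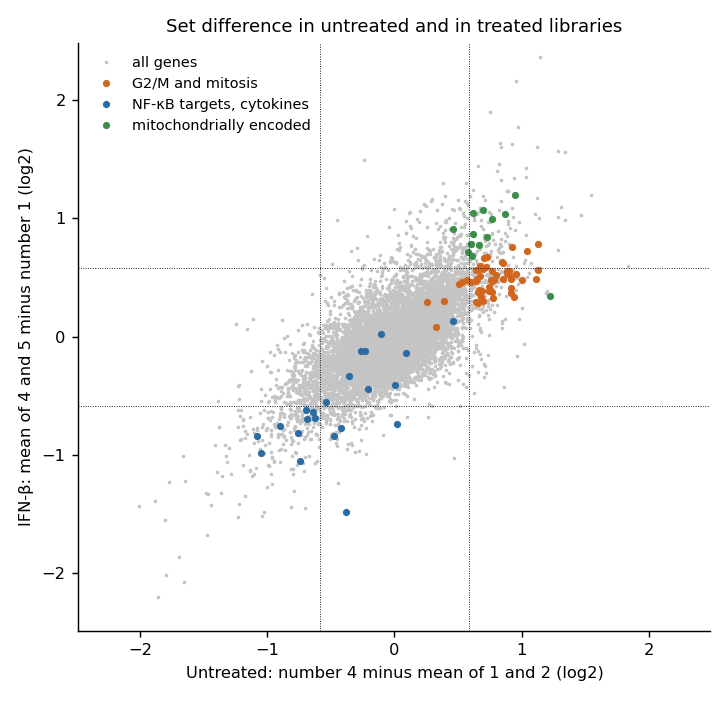
Set difference of each gene at 5 CPM or more in the untreated libraries (x axis) and in the treated libraries (y axis), both log2, high-numbered minus low-numbered; dotted lines mark 1.5-fold. The genes run along the diagonal (r = 0.70 across genes), with G2/M genes to the right and above zero and most NF-κB targets below and to the left.

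Of the gene lists, mitosis had the most genes higher by the size rule. All 54 G2/M and mitosis genes measured were higher in the high-numbered set with no overlap within either treatment, as were 22.6% of all genes tested, while 26% were lower in this way. By the size rule 34 were higher and none lower, where 6.58% and 6.28% of all genes were so counted. Their median difference was 0.63 (log2), and the interquartile range of all genes tested ran from -0.23 to 0.20. Summed over the list, the level was 10088 and 9984 CPM in untreated libraries 1 and 2 and 17482 CPM in untreated library 4. With interferon-β it was 9618 CPM in library 1 and 13760 and 13206 CPM in libraries 4 and 5. Every high-numbered library was thus above every low-numbered one, and the untreated library 4 stood highest. The HCC38 libraries covered 10886 to 12383 CPM, a narrower span. Without untreated library 4, 11 of the G2/M genes met the rule (median 0.48), where 2053 of all 18618 genes were higher. Without treated library 1, 48 of the G2/M genes met it (median 0.75), where 1791 of all 18598 genes were higher.

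MKI67, the proliferation marker Ki-67, was at 699 and 708 CPM in untreated libraries 1 and 2 and at 1519 CPM in library 4. In treated libraries it was at 653 CPM in number 1 and at 987 and 847 CPM in numbers 4 and 5. HMMR, a spindle-associated hyaluronan receptor, had the largest difference of the list, at 63.7 and 53.4 CPM against 128 CPM untreated and 62.0 CPM against 113 and 102 CPM treated (difference 0.96). The kinesins KIF23 and KIF20A, which act in cytokinesis, differed by 0.89 and 0.85, and ANLN, the scaffold of the contractile ring, by 0.84. KIF23 was at 143 and 141 CPM against 293 CPM untreated, and at 143 CPM against 242 and 231 CPM treated. None of these genes overlapped between the sets within a treatment.

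CCNB1, the mitotic cyclin, stood at 242 and 249 CPM against 459 CPM without treatment and at 263 CPM against 381 and 374 CPM with it (0.71). CDK1, its kinase partner, had values of 232 and 231 CPM against 370 CPM, and of 191 CPM against 299.9 and 281 CPM (0.64). The smallest differences of the list belonged to MYBL2 (0.21), CDC25B (0.28) and BUB3 (0.35), which were ordered by set but under the size rule. PRC1 and NUSAP1 were also counted, at means of 1.25 and 0.552 CPM, but these counts are far below what their deposited FPKM would give and their levels are uncertain. On the FPKM scale PRC1 was at 97.1 and 84.6 against 149 untreated and at 84.4 against 128 and 121 treated, in the same order.

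A few promoters are shown because many G2/M promoters hold short elements that the size rule did not use, and others do not. The CCAAT box is the letters NF-Y recognises, and TTTGAA is the core of the cell cycle homology region bound by the DREAM and MuvB complexes. RefSeq promoters (GRCh38.p14, from 250 bases before to 50 after the start) were at hand for 46 of the 54 G2/M genes. Of these, 33 (71.7%) held CCAAT and 34 (73.9%) held TTTGAA on either strand, against 35.7% and 15.4% of all 27305 promoters, and 26 (56.5%) held both, against 6.08%. Among the 28 of them that met the size rule 23 held CCAAT and 22 held TTTGAA, and among the other 18 the numbers were 10 and 12. Of 44 G1/S promoters 24 held CCAAT and 1 held TTTGAA. The 120 bases before the start are printed 5′ to 3′ on the gene's strand, with CCAAT and TTTGAA, or their reverse complements, in capitals.
HMMR (chr5:163460512-163460631, plus strand): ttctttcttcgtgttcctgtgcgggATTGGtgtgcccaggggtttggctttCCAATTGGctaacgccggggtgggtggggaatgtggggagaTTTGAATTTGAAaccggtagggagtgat
KIF23 (chr15:69414229-69414348, plus strand): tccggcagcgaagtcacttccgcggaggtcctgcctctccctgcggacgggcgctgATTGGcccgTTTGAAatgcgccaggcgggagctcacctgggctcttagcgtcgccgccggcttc
ANLN (chr7:36389742-36389861, plus strand): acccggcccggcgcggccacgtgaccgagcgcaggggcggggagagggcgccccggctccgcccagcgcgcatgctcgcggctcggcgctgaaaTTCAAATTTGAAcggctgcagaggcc
MKI67 (chr10:128126424-128126543, minus strand): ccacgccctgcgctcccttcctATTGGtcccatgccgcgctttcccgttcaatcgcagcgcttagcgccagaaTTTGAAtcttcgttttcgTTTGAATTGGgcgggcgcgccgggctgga
CCNB1 (chr5:69167030-69167149, plus strand): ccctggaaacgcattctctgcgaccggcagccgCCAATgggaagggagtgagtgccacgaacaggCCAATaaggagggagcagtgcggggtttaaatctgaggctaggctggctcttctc
CDK1 (chr10:60778211-60778330, plus strand): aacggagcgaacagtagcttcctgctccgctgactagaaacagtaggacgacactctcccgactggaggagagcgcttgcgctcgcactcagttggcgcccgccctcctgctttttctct
RRM2, a G1/S gene shown for contrast (chr2:10122619-10122738, plus strand): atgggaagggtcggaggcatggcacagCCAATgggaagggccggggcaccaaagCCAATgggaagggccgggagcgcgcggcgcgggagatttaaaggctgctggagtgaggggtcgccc
A match is a description of the letters and not a bound site. In these windows HMMR, KIF23 and MKI67 carried both elements, ANLN only TTTGAA, CCNB1 and RRM2 only CCAAT, and CDK1 neither. KIF20A, not printed, held CCAAT and no TTTGAA in its window.

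Replication genes were ordered the same way with smaller differences. Of 54 G1/S genes, 46 were higher in the high-numbered set with no overlap within either treatment and none lower, against 22.6% and 26% of all genes. By the size rule 2 were higher (3.70%), against 6.58% of all genes, and the median difference was 0.32. Among genes at 5 CPM or more it was 2 of 53, against 2.93% of all such genes. Their summed level was 5824 and 5717 CPM against 7216 CPM untreated, and 4731 CPM against 5886 and 5988 CPM treated. The 2 that met the rule were ORC6, a subunit of the origin recognition complex (0.65), and RRM2, the small subunit of ribonucleotide reductase (0.62). RRM2 was at 196 and 179 CPM against 264 CPM untreated and at 166 CPM against 276 and 283 CPM treated. PCNA, the sliding clamp of DNA polymerases, differed by 0.27, MCM2, a helicase subunit, by 0.23, and CCNE2, a G1/S cyclin, by 0.46.

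The ratio of the summed G2/M to the summed G1/S level was 1.73 and 1.75 in untreated libraries 1 and 2 and 2.42 in library 4. In treated cells it was 2.03 in library 1 and 2.34 and 2.21 in libraries 4 and 5. Against the 2.35 to 2.64 of HCC38, the low-numbered libraries had the lowest values of the series. Regulators of entry into the cycle had no common direction. Of 21 G1 cyclins, CDKs and their inhibitors 6 were higher and 6 lower with no overlap within either treatment. These shares were near those of all genes (22.6% and 26%). CCND1, cyclin D1, differed by -0.20 and the cyclin-dependent kinase inhibitor CDKN1A by 0.01. MYC, a transcription factor of growth, differed by 0.33, below the size rule but in the order of the sets, at 96.6 and 92.1 CPM against 128 CPM untreated and 81.0 CPM against 92.1 and 96.1 CPM treated. MXD4, an antagonist of MYC, was lower in the high-numbered set (-0.89).

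**Figure D3:**
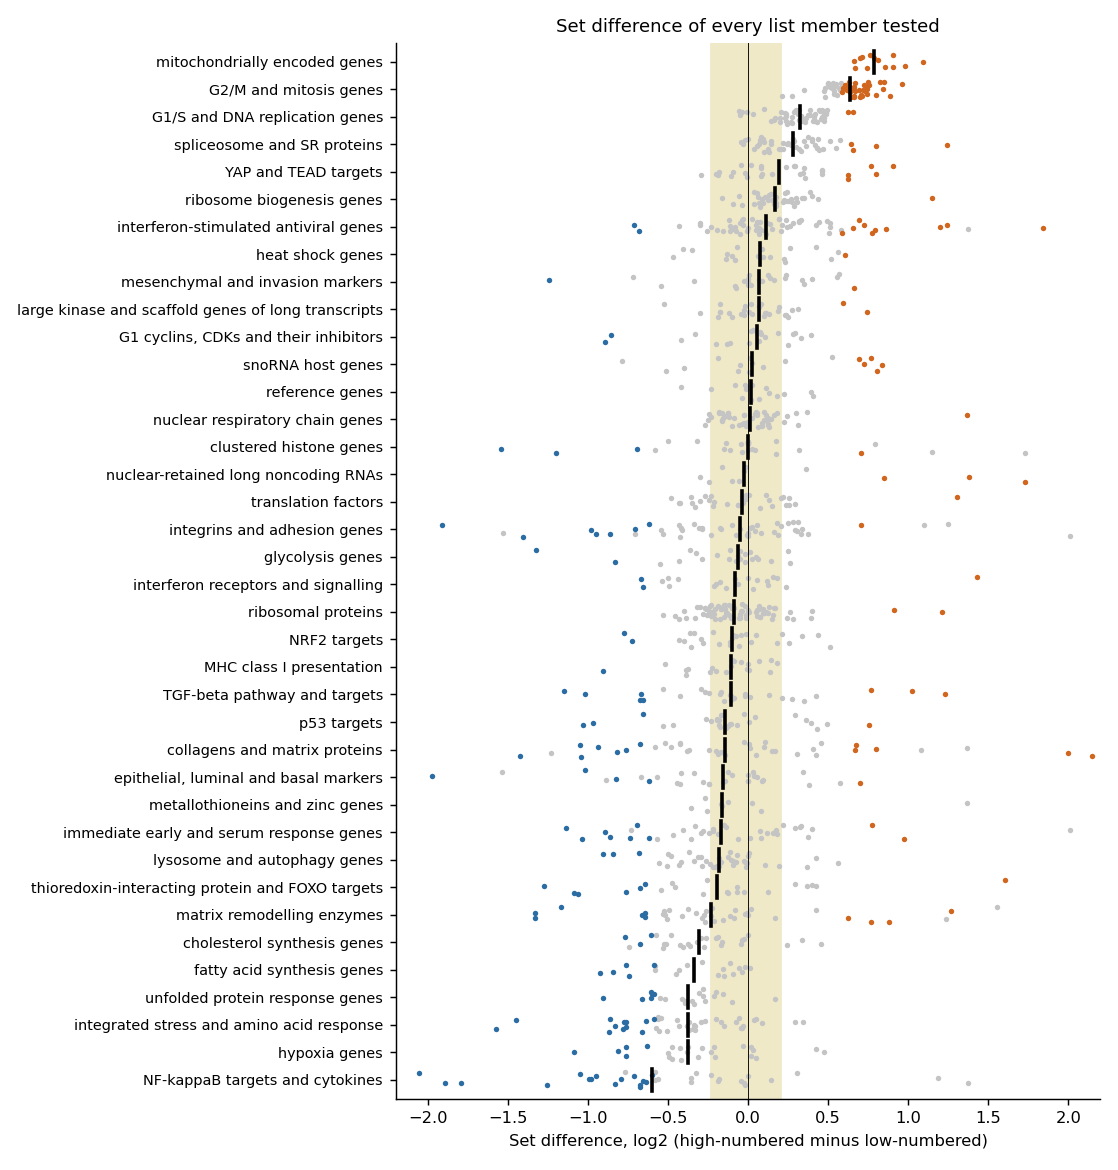
Set difference (log2, high-numbered minus low-numbered) of every tested member of 38 gene lists, sorted by the list's median (black bar). Orange and blue points met the size rule as higher and lower, the shaded band is the interquartile range of all genes tested (-0.23 to 0.20), and 5 points lie outside the axis. Mitochondrially encoded and G2/M genes have the highest medians and NF-κB targets the lowest.

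Of 47 spliceosome and SR protein genes, 36 were higher with no overlap within either treatment and none lower (22.6% and 26% of all genes), with a median difference of 0.28. By the size rule 4 were higher (8.51%), against 6.58% of all genes. Among genes at 5 CPM or more it was 3 of 46, against 2.93% of all such genes. HNRNPH1, a splicing regulator, was at 727 and 751 CPM against 1119 CPM untreated and at 566 CPM against 966 and 890 CPM treated (0.66). The 40 ribosome biogenesis genes had a median of 0.17 with 1 gene counted, and 78 ribosomal protein genes one of -0.09 with 2 counted, both at under 5 CPM. Of 17 small nucleolar RNA host genes 5 were higher (29.4%) and none lower, against 6.58% and 6.28% of all genes. The higher ones included SNHG17 (0.84), SNHG4 (0.80) and SNHG1 (0.77). SNHG1 was at 63.9 and 66.2 CPM against 109 CPM untreated and 49.4 CPM against 87.5 and 84.0 CPM treated. The list's median was 0.03, with 6 members higher and 3 lower without overlap (22.6% and 26% of all genes). EIF4A1, a translation initiation helicase, met the rule on counts (1.30, at 2.87 to 8.79 CPM) but not on the deposited FPKM (-0.08, at 1331 to 1698 FPKM), and its direction is uncertain.

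NEAT1, the long noncoding RNA that builds paraspeckles, was among the largest differences (1.38), at 72.7 CPM in both low-numbered untreated libraries against 143 CPM, and at 67.1 CPM against 236 and 226 CPM treated. MALAT1, its nuclear-retained neighbour, differed by 0.85. It was at 279 and 266 CPM against 405 CPM untreated and at 140 CPM against 293 and 323 CPM treated. The remaining long noncoding RNAs of that list of 11 had 1 more member counted, and the list's median was -0.03.

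All 13 mitochondrially encoded protein genes were higher by the size rule, against 2.93% of all genes at 5 CPM or more. They had a median difference of 0.78 and a range from 0.66 (MT-ND2) to 1.09 (MT-ND5). Their summed level was 19370 and 15884 CPM in untreated libraries 1 and 2 against 28132 CPM in library 4. In treated cells it was 8570 CPM in library 1 against 21328 and 12630 CPM in libraries 4 and 5. As deposited FPKM the untreated sums were closer, at 77060 and 53566 in libraries 1 and 2 against 79878 in library 4. The treated sums were 33065 FPKM in library 1 against 66322 and 42479 FPKM in libraries 4 and 5. On log2(FPKM + 1) 8 of the 13 genes met the rule (median 0.67), where 297 of 18121 genes were higher. Libraries of one set differed by nearly as much: treated library 5 had a median of -0.75 (log2) relative to treated library 4 over these genes. Untreated library 2 had -0.24 relative to library 1. Without treated library 4 the count was 8 and the median 0.63, where 1359 of 18616 genes were higher. The 50 nuclear genes of the respiratory chain had a median of 0.01 with 1 counted as higher (2%), against 6.58% of all genes. The nuclear and the mitochondrial genes of that chain were thus not ordered together.

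Of the gene lists, NF-κB targets and cytokines had the most genes lower by the size rule. Of 37 tested, 17 were lower (45.9%) and 1 was higher (2.70%), against 6.28% and 6.58% of all genes. Their median was -0.60. Of the 22 at 5 CPM or more, 12 were lower and none higher, against 3.73% and 2.93% of all such genes. Without treated library 1 the median was -0.40 with 13 lower, where 2068 of all 18598 genes were lower. Without untreated library 4 the median was -0.71 with 22 lower, where 1689 of all 18618 genes were. The summed level was 1270 and 1229 CPM against 946 CPM untreated, and 1608 CPM against 1043 and 1124 CPM treated. RELB, a subunit of the noncanonical NF-κB pathway, was at 15.1 and 15.7 CPM against 7.20 CPM and, treated, at 21.7 CPM against 9.87 and 11.7 CPM (-1.05). CXCL8, the neutrophil chemokine interleukin-8, was at 15.6 and 11.7 CPM against 10.3 CPM untreated and at 35.8 CPM against 12.8 and 12.3 CPM treated (-0.99). ICAM1, a leukocyte adhesion ligand, differed by -0.98 and CSF3, a granulocyte growth factor, by -0.95. IL6 did not meet the rule (-0.23): untreated it was at 7.14 and 7.45 CPM against 7.32 CPM. The inhibitor NFKBIA and the precursor NFKB2 were also among the 12, at -0.79 and -0.64.

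**Figure D4:**
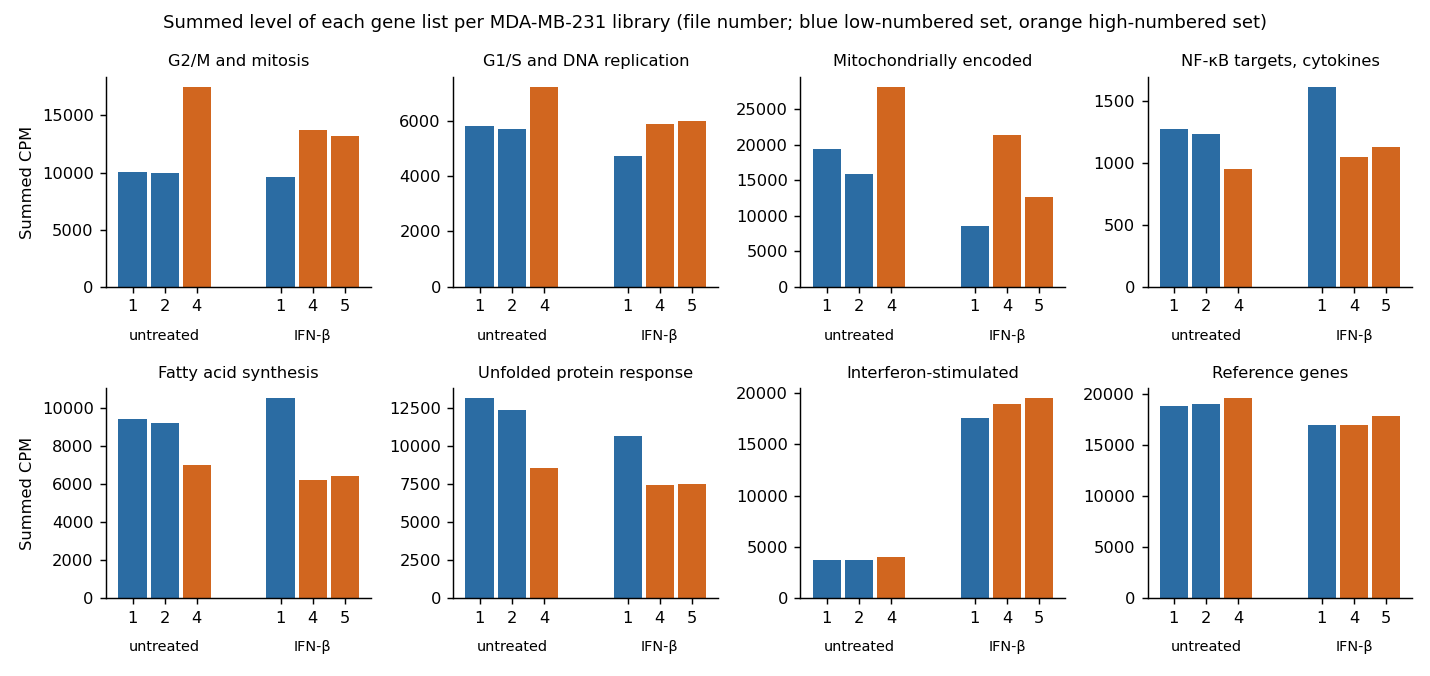
Summed level of 8 gene lists in each MDA-MB-231 library, in CPM on a linear axis from 0, by deposited number and treatment; blue bars are the low-numbered and orange bars the high-numbered set. G2/M genes are highest in untreated library 4 (17482 CPM), fatty acid synthesis and unfolded protein response genes are lower in the high-numbered set in both treatments, and interferon-stimulated and reference genes differ little between the sets.

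Secretory and amino acid stress genes were lower as well. Of 22 unfolded protein response genes 6 were lower (27.3%) and none higher, against 6.28% and 6.58% of all genes, and the list's median was -0.37. The summed level of the list was 13116 and 12362 CPM against 8572 CPM untreated and 10629.6 CPM against 7405 and 7529 CPM treated. CALR, the endoplasmic reticulum chaperone calreticulin, was at 2423 and 2260 CPM against 1064 CPM untreated and at 2031 CPM against 1218 and 1317 CPM treated (-0.91). HSP90B1 and HSPA5, the chaperones GRP94 and BiP, differed by -0.66 and -0.61. HSPA5 was at 2058 and 1873 CPM against 1424 CPM, and at 1823 CPM against 1088 and 1086 CPM.

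The integrated stress and amino acid response is run by the translation of ATF4. Of its 42 genes 12 were lower (28.6%) and none higher (median -0.38), against 6.28% and 6.58% of all genes. PYCR1, of proline synthesis, was at 96.4 and 97.9 CPM against 52.9 CPM untreated and at 66.8 CPM against 35.1 and 38.8 CPM treated (-0.87). The neutral amino acid transporter SLC1A4 differed by -0.86, the mitochondrial enzyme PCK2 by -0.78 and the pseudokinase TRIB3 by -0.77. ASNS, asparagine synthetase, was at 0.698 to 2.32 CPM in all 6 libraries and did not meet the rule (-0.45). ASS1, the urea cycle enzyme that makes argininosuccinate, had the third largest lower difference among genes at a mean of 10 CPM or more. It was at 145 and 131 CPM against 33.9 CPM untreated and at 103 CPM against 36.9 and 38.7 CPM treated (-1.73), a 3.32-fold difference.

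Of 20 fatty acid synthesis genes 5 were lower (25%) and none higher (median -0.33), against 6.28% of all genes lower. Of 28 cholesterol synthesis genes 3 were lower (10.7%) and none higher (median -0.31), against 6.28% of all genes lower. Among genes at 5 CPM or more 3 of 26 were lower, against 3.73% of all such genes. With an offset for GC content 1 cholesterol gene was lower, where 969 of 18121 genes were. FASN, fatty acid synthase, was at 1226 and 1202 CPM against 740 CPM untreated and at 1643 CPM against 710 and 790 CPM treated (-0.92). SCD, the desaturase that makes oleate, was at 3095 and 3025 CPM against 1987 CPM and at 3380 CPM against 1610 and 1624 CPM (-0.84). SREBF1, which encodes a transcription factor of lipid synthesis, differed by -0.74. HMGCS1, an early enzyme of cholesterol synthesis, was at 148 and 146 CPM against 142 CPM untreated and did not meet the rule (-0.29). Without treated library 1 the cholesterol list had a median of -0.15 with 2 lower, where 2068 of all 18598 genes were lower. Without untreated library 4 the list had a median of -0.43 with 10 lower, where 1689 of all 18618 genes were.

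Of 25 hypoxia genes 5 were lower (20%) and none higher (median -0.38), against 6.28% and 6.58% of all genes. The lower ones included EGLN3, an oxygen-sensing hydroxylase (-1.08), NDRG1 (-0.81) and DDIT4, an inhibitor of mTORC1 (-0.76). DDIT4 was at 396 and 387 CPM against 236 CPM untreated and at 429 CPM against 234 and 261 CPM treated. CA9, a defining hypoxia gene, went the other way without meeting the rule (0.47), at 9.32 and 9.99 CPM against 11.3 CPM and at 18.9 CPM against 27.5 and 33.3 CPM. VEGFA, the endothelial growth factor, differed by -0.48. Without untreated library 4 the list had 2 higher and 2 lower members, where 2053 and 1689 of all 18618 genes were so counted. Without treated library 1 it had 9 lower, where 2068 of all 18598 genes were lower. Glycolysis genes had a median of -0.06, with SLC2A3, the glucose transporter GLUT3, lower (-0.83).

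TXNIP stood against its list. TXNIP, an arrestin that restrains glucose uptake, had the second largest higher difference among genes at 5 CPM or more (1.60, 3.04-fold), at 17.6 and 16.1 CPM against 33.2 CPM untreated and at 31.9 CPM against 140 and 149 CPM treated. Of the 22 FOXO targets and related genes of that list, 6 were lower (27.3%), against 6.28% of all genes. The lower ones included TSC22D3 (-1.09), a glucocorticoid-induced gene, and KLF9 (-1.06). The selective autophagy receptor SQSTM1 was lower too, at 881 CPM in both low-numbered untreated libraries against 450.2 CPM, and at 890.1 CPM against 472 and 523 CPM (-0.90). FTH1, the ferritin heavy chain, differed by -0.73. HMOX1, the haem oxygenase of the same NRF2 list, differed by -0.05, and the metallothioneins MT2A and MT1X by -0.16 and -0.36 with overlapping values.

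Of 38 immediate early and serum response genes 2 were higher (5.26%) and 7 lower (18.4%), against 6.58% and 6.28% of all genes. DUSP6, a phosphatase that turns ERK off, was at 67.5 and 65.4 CPM against 30.0 CPM untreated and at 87.3 CPM against 36.8 and 43.0 CPM treated (-1.14). ETV4 and SPRY4, induced by the same pathway, differed by -0.89 and -0.86. DUSP1, another phosphatase of MAP kinases, was higher (0.78), and FOS and EGR1 were at 1.20 to 3.52 CPM in all libraries and did not meet the rule. Of 30 YAP and TEAD targets 5 were higher (16.7%) and none lower, against 6.58% and 6.28% of all genes. The list's median of 0.19 lay inside the interquartile range of all genes. CCN2, the canonical YAP target, was at 62.6 and 58.4 CPM against 99.3 CPM untreated and at 56.4 CPM against 96.4 and 102 CPM treated (0.77). F3, tissue factor, differed by 0.90 and THBS1, thrombospondin 1, by 0.80, while CCN1 differed by 0.46 and did not meet the rule. Without treated library 1, 3 of the YAP and TEAD targets met it, where 1791 of all 18598 genes were higher.

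Matrix genes were split. Of 39 collagens and matrix proteins 5 were higher (12.8%) and 7 lower (17.9%), against 6.58% and 6.28% of all genes. Of 37 matrix remodelling enzymes 4 (10.8%) and 6 (16.2%) were so counted. At 5 CPM or more, 2 of 27 matrix proteins and 2 of 29 enzymes were higher, against 2.93% of all such genes. At that level 6 of each were lower, against 3.73%. The laminin chains LAMA5 (-0.94) and LAMB3 (-0.82) and collagen VI chain COL6A1 (-1.04) were lower. COL6A1 was at 123 and 119 CPM against 60.6 CPM untreated and at 130 CPM against 55.4 and 66.2 CPM treated. TIMP3, an inhibitor of metalloproteinases, was lower (-1.33) and ADAMTS1, a matrix protease, higher (1.27). ADAMTS1 was at 9.86 and 10.4 CPM against 21.3 CPM and at 10.4 CPM against 27.3 and 30.3 CPM.

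Some of the largest differences belonged to genes outside these lists. IGFN1, which encodes an immunoglobulin-domain protein known from muscle (chr1:201190824-201228952), was at 11.3 and 11.4 CPM against 25.6 CPM untreated and at 11.98 CPM against 66.2 and 61.7 CPM treated (1.79). MYPN, the sarcomere protein myopalladin, differed by 1.48, ARTN, a neurotrophic ligand of the RET receptor, by 1.40, and FST, the activin antagonist follistatin of the TGF-β list, by 1.23. DNER, a Notch-related transmembrane protein, was at 13.3 and 13.7 CPM against 30.0 CPM and, treated, at 13.1 CPM against 29.6 and 31.0 CPM (1.18). Its values were almost the same with and without interferon-β, and the set was the only one of the 2 factors that ordered them. YJEFN3 differed by 1.14. CD274, which encodes the checkpoint ligand PD-L1, was at 11.5 and 9.30 CPM against 18.9 CPM and at 8.82 CPM against 24.0 and 21.7 CPM (1.11).

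On the lower side SNED1, an extracellular matrix protein (chr2:240998618-241095568), had the largest difference. It was at 26.4 and 24.2 CPM against 6.62 CPM untreated and at 18.5 CPM against 3.50 and 3.79 CPM treated (-2.13). MARCKSL1, an actin-regulating membrane protein, was at 50.7 and 45.7 CPM against 14.5 CPM and at 45.6 CPM against 10.6 and 13.9 CPM (-1.81). CYTH4 and TMC8, genes best known from blood cells, differed by -1.51 and -1.45, the endothelial lipase LIPG by -1.43, the kinase-like TRIB2 by -1.40, PLCH2, a phospholipase C, by -1.39, the protease inhibitor SERPINA1 by -1.31 and the secretory kinase FAM20C by -1.27. Complement C3 was at 154 and 136 CPM against 51.5 CPM and at 373 CPM against 147 and 151 CPM (-1.41), and treated libraries of the high-numbered set stood at the level of untreated ones of the low-numbered set. No gene was switched on or off between the sets in the sense of 4-fold between the nearest libraries and 1 CPM in every library of one set, except the mucin MUC5B, named after its values were seen, at 1.29, 2.09 and 2.00 CPM in the low-numbered and 0.0970, 0.101 and 0.174 CPM in the high-numbered set.

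Differences were spread over the chromosomes. Chromosome medians of genes at 5 CPM or more lay between -0.09 (chromosome 22) and 0.03 (chromosome 13), and the mitochondrial genome stood apart at 0.76. The 265 zinc finger genes named ZNF on chromosome 19 had a median of 0.12. Their median GC content was 42.4%, against 48.3% for all genes tested. Without overlap in either treatment 101 of the 265 were higher, against 22.6% of all genes tested, which takes in genes under 5 CPM. By the size rule 19 were higher (7.17%) and 5 lower (1.89%). The shares were 6.58% and 6.28% of all genes tested, and 2.93% and 3.73% of those at 5 CPM or more. With an offset for GC content 16 were higher and 4 lower (median 0.09), where 1242 and 969 of 18121 genes were so counted. On FPKM it was 7 and 3 (0.04), where 297 and 621 of 18121 genes were. The 16 reference genes had a median of 0.02, and none met the rule.

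Base composition was related to some differences between libraries, within a set as well as between sets. The GC content of a gene's longest transcript had a Spearman correlation of -0.41 with the difference of untreated library 4 from library 1, and of -0.18 and 0.09 with those of treated libraries 4 and 5 from treated library 1. Genes were the points, and they share libraries. Within the high-numbered set, library 5 minus library 4 gave 0.58, and within the untreated low-numbered pair it was -0.01, while HCC38 replicates gave -0.78 to 0.48. In the lowest quintile of GC content the median set difference was 0.05, with 3.46% of genes higher and 1.14% lower, and in the highest quintile it was -0.12, with 1.77% higher and 8.42% lower. The G2/M list has a median GC content of 42.6% and all genes one of 48.3%. With an offset for GC in each library, added after seeing the data, 30 of the 54 G2/M genes met the rule (median 0.61), as did all 13 mitochondrial genes (0.74), 15 NF-κB targets on the lower side (-0.58), 4 unfolded protein response genes (-0.36) and 1 cholesterol gene (-0.34). Under that offset 1242 of all 18121 genes were higher and 969 lower. By transcript length the median set difference was flat, at -0.02 to -0.03 in each quintile. The share of genes higher was 3.50% and 4.14% in the quintiles of shortest transcripts and 1.96% to 2.46% in the others. The Spearman correlation of length with library differences was -0.10 to 0.07 for pairs of different sets. It was -0.12 and -0.19 for same-set pairs and -0.24 to 0.24 for HCC38 replicates.

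Interferon-β itself acted in both sets. With the set as a term, 4095 genes passed edgeR's quasi-likelihood test at a Benjamini-Hochberg adjusted p under 0.05 (22.6%), 2102 higher and 1993 lower. Scaled by library totals the split was 71.4% higher, against 51.3% here. The set term was itself taken from these libraries, and without it 2272 genes passed. Of 64 interferon-stimulated antiviral genes 63 rose, where 11.6% of all genes did. MX1, a dynamin-like antiviral GTPase, was at 2.50 to 3.28 CPM untreated and at 323 to 361 CPM treated. OAS1, which senses double-stranded RNA, was at 0.929 to 1.19 CPM and at 274 to 321 CPM, and ISG15, a ubiquitin-like modifier, at 45.8 to 59.0 CPM and at 483 to 593 CPM. These genes did not separate the sets by the size rule.

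Other antiviral genes did: 10 of the 64 were higher and 2 lower in the high-numbered set, against 6.58% and 6.28% of all genes. The numbers were 14 and 6 without treated library 1, where 1791 and 2068 of all 18598 genes were so counted. They were 6 and 1 without untreated library 4, where 2053 and 1689 of all 18618 genes were. The higher ones included the IFIT genes, whose proteins bind foreign RNA. IFIT1 was at 38.9 and 37.1 CPM against 137 CPM untreated and at 511 CPM against 788 and 763 CPM treated (1.20). IFIT2 differed by 0.86, OASL by 0.79 and IFIT3 by 0.78, and outside the list GBP5, a guanylate-binding protein, by 1.19. IFIT3 was at 168 and 170 CPM against 386 CPM before treatment. Untreated library 4 was thus above the untreated low-numbered libraries for these genes in the absence of added interferon, whereas for MX1 (2.50 CPM against 3.18 and 3.28 CPM) and BST2 (2.42 CPM against 5.36 and 6.32 CPM) it was below them.

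The response to interferon-β was compared between the sets as an interaction, which is the difference between the untreated and the treated set difference. The sets were recognised from those same library differences, so its p-values are not independent of that choice and serve here only to count and order genes. By edgeR's quasi-likelihood fit 11 genes had an adjusted p under 0.05 (0.0607% of 18121; 1844 at an unadjusted p under 0.05), 3 with a larger value in the high-numbered set and 8 with a smaller one. Each side of the interaction rests on 1 lone library, untreated library 4 or treated library 1, which is assumed to vary like the others. HERPUD1, a component of endoplasmic reticulum-associated degradation, was at 77.2, 57.6 and 92.4 CPM in untreated libraries 1, 2 and 4. With interferon-β it was at 70.8 CPM in library 1 and at 34.2 and 34.9 CPM in libraries 4 and 5. Its fitted response was 0.07 ± 0.12 (log2, SE) in the low-numbered set and -1.42 ± 0.12 in the high-numbered set, a difference of -1.49 ± 0.17.

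The response of IFIT1 was 3.75 ± 0.10 in the low-numbered and 2.50 ± 0.12 in the high-numbered set (difference -1.25 ± 0.14). Those of IFIT3 and IFI44, both interferon-induced, were also smaller in the high-numbered set (-0.82 ± 0.14 and -0.77 ± 0.14). All 3 were higher in untreated library 4 to begin with. BST2, the tetherin that holds budding viruses at the membrane, had a larger response in the high-numbered set (7.85 ± 0.18 against 6.42 ± 0.12, difference 1.43 ± 0.22). Its treated levels were 503 CPM in library 1 and 532 and 586 CPM in libraries 4 and 5, and its untreated level was lowest in library 4.

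The response of TXNIP was 0.92 ± 0.11 in the low-numbered and 2.12 ± 0.12 in the high-numbered set (difference 1.20 ± 0.16). PRKDC, the catalytic subunit of DNA-dependent protein kinase, was at 762, 804 and 1205 CPM in untreated libraries 1, 2 and 4 and at 503, 488 and 434 CPM in treated libraries 1, 4 and 5. Its response was -0.64 ± 0.10 in the low-numbered and -1.39 ± 0.09 in the high-numbered set (difference -0.75 ± 0.13). Untreated library 4 was the highest of the 6, and treated library 1 lay above treated libraries 4 and 5. SOD2, mitochondrial superoxide dismutase, was at 136, 135 and 138 CPM untreated and stood at 164 CPM in treated library 1 against 92.4 and 105 CPM in libraries 4 and 5 (difference -0.76 ± 0.13). P4HA2, a collagen prolyl hydroxylase, had a difference of 0.73 ± 0.13. The remaining genes were lowly expressed, CXCL1 with a difference of -1.54 ± 0.27 at 1.96 to 12.3 CPM and CGNL1 with one of -3.001 ± 0.52 at 0.328 to 1.84 CPM.

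**Figure D5:**
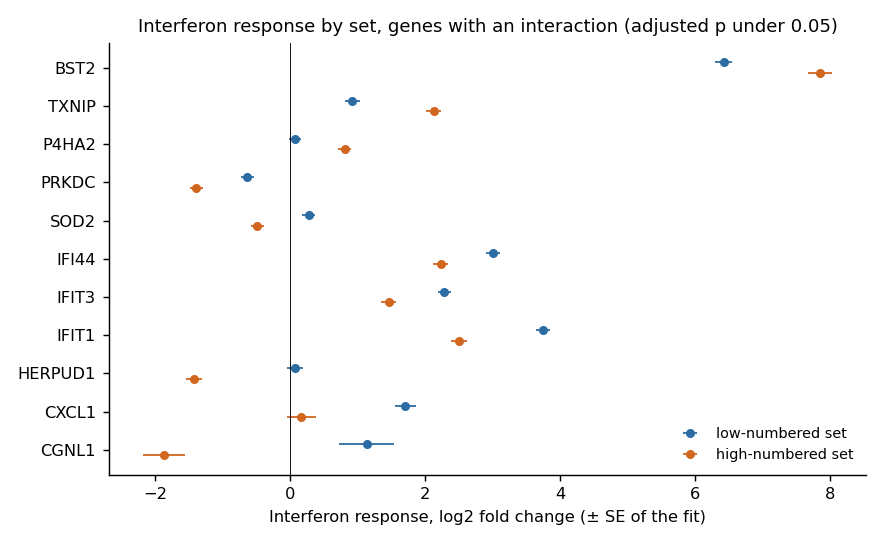
Interferon-β response (log2 fold change, points, with the SE of the fit as bars) of the 11 genes with an interaction at an adjusted p under 0.05, in the low-numbered (blue) and the high-numbered set (orange). HERPUD1 was near 0 in the low-numbered set (0.07) and at -1.42 in the high-numbered set, and IFIT1 was at 3.75 and 2.50.

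The number of such genes moved with the model. It was 0 with a replicate block (1294 at an unadjusted p under 0.05), 1 against a 1.5-fold change, 5 with scaling by library totals, 72 in DESeq2, 173 when the 6 MDA-MB-231 libraries were fitted alone and 311 with the GC offset. Without untreated library 1 it was 7 and without untreated library 2 it was 61, and without treated library 4 or 5 it was 5. No G2/M gene was among the 11, but several had smaller values in the high-numbered set. KIF20A had a response of 0.14 ± 0.08 in the low-numbered and -0.42 ± 0.08 in the high-numbered set (difference -0.56 ± 0.11), and MKI67 one of -0.11 ± 0.10 and -0.73 ± 0.09 (difference -0.62 ± 0.14). CCNB1 was at 0.10 ± 0.09 and -0.28 ± 0.09, and CDK1 at -0.27 ± 0.09 and -0.35 ± 0.09. In the fit with 1 response for both sets, 17 of 54 G2/M genes fell with interferon-β and none rose, where 11% and 11.6% of all genes did. Of 37 NF-κB targets and cytokines 20 rose and none fell with interferon-β.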

How the data were processed

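RNA-seq libraries of MDA-MB-231 and HCC38 cells were made with a strand-preserving kit, per the labels' protocols. The authors deposited, per library, a table of read counts per gene, whole numbers that were not normalized, and a table of FPKM values, normalized for length and depth. Per the submitters' processing notes, the tools included HTSeq 2.0.2, Cufflinks 2.2.1 and fastp 0.23.2, on build GRCh38.p13. The aligner, annotation release and counting settings are not given in the sources at hand, so counts of overlapping or near-identical genes are uncertain. Total counts were 26660038 to 43588773.

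Genes kept by filterByExpr (minimum count 10, minimum total 15) numbered 18121 of 61552. All 12 libraries were fitted with edgeR 4.0.16 (quasi-likelihood test, TMM scaling, R 4.3.3, limma 3.58.1), with 1 coefficient per line and treatment and a term for the set within MDA-MB-231, and then with a set-by-treatment interaction. Calls required a p-value under 0.05 after Benjamini-Hochberg adjustment over the 18121 genes. The set difference was given no p-value, since the sets were recognised in these counts, and interaction p-values serve only to count and order genes. The members, the 41 gene lists (1279 entries) and the tests were chosen with earlier results of these data known. Genes were named as the 12 largest counted differences in each direction at a mean of 10 CPM or more, up to 4 counted members of each list at 5 CPM or more, a fixed series of sentinel genes, and up to 8 called interactions in each direction; other names were added after their values were seen. Correlations and distances used log2(CPM + 0.5). GC content came from GENCODE transcripts and promoters from RefSeq (GRCh38.p14). The fits were tested on simulated counts. Alternatives were median-of-ratios scaling, library totals, no filter, the 6 MDA-MB-231 libraries alone, DESeq2 1.42.0, limma on log2(FPKM + 1), a replicate block, a test against 1.5-fold, each library left out and, added after seeing the data, a GC offset and no set term.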

Additional observations from a re-analysis of the deposited data

Results flagged for a closer look

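The interferon-β response of 11 genes had an adjusted p under 0.05 for a difference between the sets (edgeR's quasi-likelihood interaction). On the log2 scale, high-numbered minus low-numbered, the differences were -3.001 for CGNL1, -1.54 for CXCL1, -1.49 for HERPUD1, -1.25 for IFIT1, -0.82 for IFIT3, -0.77 for IFI44, -0.76 for SOD2, -0.75 for PRKDC, 0.73 for P4HA2, 1.20 for TXNIP and 1.43 for BST2. HERPUD1, TXNIP and BST2 stayed under 0.05 in 11 of 13 alternatives each, IFIT1 in 10 and the other 7 in 6 to 8. The sets were recognised from the same libraries, so these p-values are not independent of that choice. All 11 kept their direction under each alternative that gave a value.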

How the results depend on the processing

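Leaving out each library gave 1359 to 2053 genes higher and 1291 to 2068 lower by the size rule, 5 to 61 genes with a differing interferon-β response and 1177 to 3698 genes with a response under the set term. The most extreme values came without untreated library 4 (2053 higher, 1177 responses), without treated library 1 (2068 lower) and without untreated library 2 (61 differing responses). Without untreated library 4 or treated library 1 a single treatment carries the set difference, and no interaction could be fitted. With no filter on low counts there were 1970 higher genes and 203 differing responses. At 2-fold the size rule gave 511 higher and 394 lower genes. On log2(FPKM + 1), whose pseudocount shrinks low genes, it gave 297 and 621, a split of 32.4% higher against 51.2%, with 1952 responses and 41 differing ones. Differing responses numbered 5 with library totals, 173 in the 6 MDA-MB-231 libraries alone, 72 in DESeq2, 1 against 1.5-fold and 311 with the GC offset; responses numbered 367 against 1.5-fold and 2272 without the set term. Of the called responses 71.4% were higher with library totals and 70.8% on FPKM, against 51.3%. With a replicate block on the title numbers there were 0 differing responses in edgeR (1294 at an unadjusted p under 0.05), 2099 responses and 1265 higher and 1452 lower genes; the numbers did not pair the samples (correlations of same-numbered deviations 0.27, -0.26 and 0.25), and 2 of 3 untreated libraries correlated best with another number. The cause of these shifts was not tested.

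Of 41 list medians 13 changed sign under some alternative. For 11 of them, which included ribosomal proteins, translation factors, collagens and the nuclear respiratory chain, the main median lay between -0.147 and 0.067 and the changed values between -0.195 and 0.193. The leukocyte median ran from -0.70 to 0.18 and the fibroblast and endothelial one from -0.20 to 0.83 with a library left out, and the latter was -0.20 in the 6 libraries alone and -0.61 with the replicate block. EIF4A1 was at -0.080 on FPKM. As summed FPKM, the set difference was -0.014 for G1 cyclins, -0.073 for mesenchymal markers and -0.21 for interferon-stimulated genes. Of the counted genes 869 higher and 727 lower ones were under 5 CPM, and the part of depth was not tested.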
